A study of Homo sapiens with 10 samples.

Results

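Interferon-stimulated genes are the genes that cells switch on when an interferon reaches its receptor, and 44 of them were named for this account and looked up by symbol among 18034 genes. Their levels come from mRNA sequencing of 10 libraries made from HCT116, a long-established line of human colorectal carcinoma cells. The libraries fall into 5 groups of 2. A gene was kept when it stood at 1 FPKM or more in at least 2 libraries, which held for 38 of the 44 genes. FPKM is the number of fragments per kilobase of a transcript relative to all fragments of the library, a level corrected for length, and the values of all transcripts of a gene were summed. The 6 genes below that limit were OAS2, MX1, RSAD2, SAMD9L, IFI44L and XAF1, and no library put any of them above 1 FPKM.

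In the inhibitor experiment, EPZ cells had received 10 µM of EPZ-5676, an inhibitor of the histone H3 methyltransferase DOT1L, for 72 h, and DMSO cells had received the vehicle. In the knockdown experiment, all cells carried a short hairpin RNA against CDK9, which releases paused RNA polymerase II as the catalytic subunit of P-TEFb. K56A cells were given back CDK9 whose lysine 56 is an alanine, WT cells were given back wild-type CDK9, and EV cells are the line against which both are set. The labels do not spell out EV, do not say whether a line is 1 clone or a pool, and do not say whether the 2 replicates of a group are separate cultures. The p-values below therefore measure the spread between these libraries, which may be technical. In bulk RNA, fewer cells expressing a gene and less of its RNA per cell cannot be told apart.

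Type I interferons bind the IFNAR1 and IFNAR2 receptor chains, whose kinases JAK1 and TYK2 phosphorylate transcription factors such as STAT2. With IRF9, STAT2 is part of the complex ISGF3, which binds the interferon-stimulated response element, ISRE, in the promoters of the genes it activates, while interferon gamma acts through the gamma-activated site, GAS. The products block virus entry, bind or cut viral RNA, or attach the ubiquitin-like protein ISG15 to other proteins, and several of them, such as STAT2, IRF9 and IRF7, feed the pathway itself.

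The promoters of some genes named below are shown around their ISRE letters. The choice of the 44 genes did not use their sequence. They were chosen as genes that interferons switch on, so their share with ISRE letters is not independent of that choice. Only genes with a match are shown. EIF2AK2 and IRF9, named as often below, had none, and IFITM1, which had 1, is not shown. ISRE was searched as GAAA, any 2 bases and GAAA again, and GAS as TTCNNNGAA, on both strands, in the 250 bases before each RefSeq start (GRCh38.p14). ISRE letters occurred in 24 of 37 genes of the 44 that had a promoter entry (64.9%), against 3.71% of 27305 genes of all kinds. GAS letters occurred in 11 of these 37 genes (29.7%), against 8.09% of all genes. A match is a description of the letters and does not show that a factor was bound. In the lines below, capitals mark the ISRE matches or their reverse complement, and overlapping matches run together. IFI27 and IFI44 had 2 windows each, and the window with the most matches is shown.
IFI6, chr1:27672264-27672360, minus strand: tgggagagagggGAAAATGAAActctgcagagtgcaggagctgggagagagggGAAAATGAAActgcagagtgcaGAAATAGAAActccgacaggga
ISG15, chr1:1013372-1013411, plus strand: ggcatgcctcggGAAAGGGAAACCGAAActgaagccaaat
IFI27, chr14:94110616-94110662, plus strand: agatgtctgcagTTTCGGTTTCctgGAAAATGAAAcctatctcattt
BST2, chr19:17405733-17405772, minus strand: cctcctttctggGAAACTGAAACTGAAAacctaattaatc
IFI44, chr1:78649759-78649788, plus strand: gggcacactgagTTTCAGTTTCctttctct
IFIT1, chr10:89392495-89392541, plus strand: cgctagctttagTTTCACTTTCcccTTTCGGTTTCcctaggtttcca
SAMD9, chr7:93118094-93118127, minus strand: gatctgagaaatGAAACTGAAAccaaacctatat

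The IFI6 window held 3 ISRE matches, the ISG15, IFI27, BST2 and IFIT1 windows held 2 each, and the IFI44 and SAMD9 windows held 1 each. IFIH1 and HERC5 also had 3 matches in their windows. None of the letters searched as ISRE were found before STAT2, IRF1, IRF9, SP110, OAS1, EIF2AK2, ADAR, UBE2L6, HERC6, TRIM21, DTX3L, SAMD9L or XAF1. USP18, IRF7, OASL, IFIT2, LY6E, IFITM2 and OAS2 are named only.

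The libraries were checked against their labels. CDK9 stood at 2611 and 2500 FPKM in K56A, 3060 and 2976 FPKM in WT, and 16.35 and 19.45 FPKM in EV. DOT1L was also unlike between the lines, at 733 and 703 FPKM in K56A, 578 and 568 FPKM in WT, and 324 and 343 FPKM in EV, whereas the inhibitor libraries had between 10.35 and 12.59 FPKM. CDK9 form and DOT1L level therefore cannot be told apart in the knockdown experiment. Of 10 colon epithelial markers, 6 stood at 1 FPKM or more in some library, KRT8 among them at 548 to 1308 FPKM, while KRT20 stayed below 0.31 FPKM. Of these markers CLDN7 alone passed the test between lines, at 126 and 124 FPKM in K56A and 115 and 113 FPKM in WT, against 148 and 154 FPKM in EV, lower than EV in both. Of 8 leukocyte markers, CD68 and ITGAM were listed, with a sum of at most 0.965 FPKM in a library, and the endothelial markers summed to at most 0.618 FPKM. Of 6 fibroblast markers, COL1A1 alone reached 1 FPKM, at 19.3 to 36.2 FPKM, and it was higher in the K56A and WT libraries than in both EV libraries. Genes of the mitochondrial genome held 25.3% to 25.4% of FPKM in K56A, 27.1% to 27.7% in WT, 27.5% to 27.9% in EV, 18.4% to 19.3% in EPZ and 17.3% to 17.6% in DMSO. DMSO replicate 1 listed 54216 transcripts above 0, against 59403 to 59913 in the other libraries of its table. In the table of K56A with EV, 71289 and 71332 transcripts were above 0 in K56A, against 69796 and 70197 in EV, and among the transcripts that both knockdown tables list, 66286 and 66399 were above 0 in K56A and 65835 and 65659 in WT, against 66103 and 66453 in EV. Retained-intron transcripts held 10.3% of FPKM in both K56A libraries, against 9.66% to 9.8% in WT and EV. The part of these differences in the results below was not tested.

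HCT116 cells expressed most of the 44 genes, with no interferon named in the labels, and over a wide range of levels. In EPZ replicate 1, the 38 genes ran from 0.401 to 796 FPKM with a median of 24.8 FPKM, and in DMSO replicate 1 from 0.0886 to 721 FPKM with a median of 19 FPKM. Together the 44 genes held 0.566% and 0.514% of all FPKM in EPZ, against 0.509% and 0.498% in DMSO. They held 0.296% and 0.295% in K56A and 0.249% and 0.254% in WT, against 0.266% and 0.277% in EV.

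**Figure D1:**
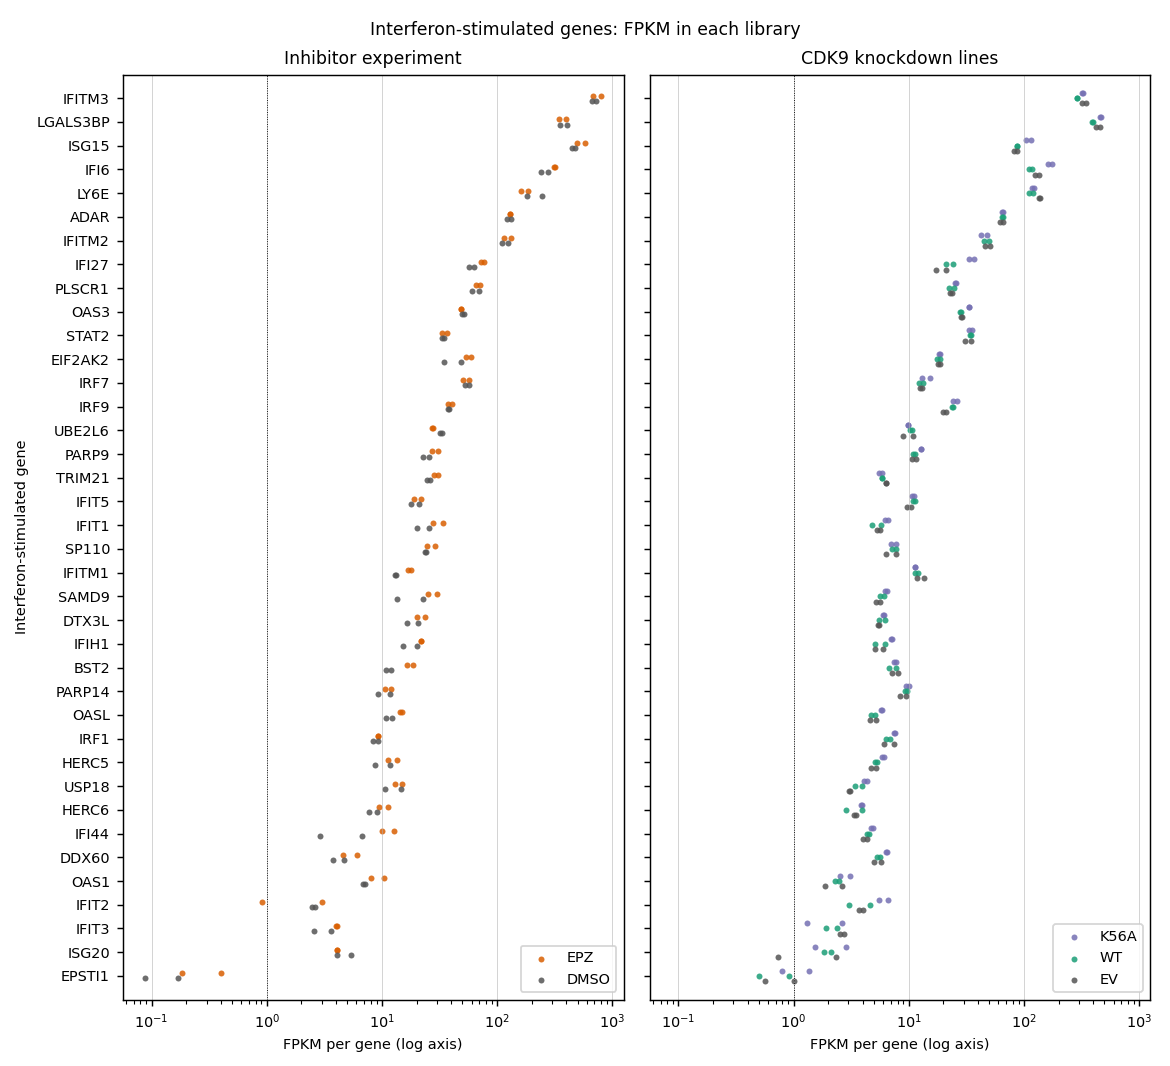
FPKM per gene on a log axis for the 38 interferon-stimulated genes, 1 dot per library, with EPZ above DMSO in the left panel and K56A above WT above EV in the right panel (all listed transcripts summed, genes ordered by mean level, dotted line at 1 FPKM). IFITM3, LGALS3BP, ISG15 and IFI6 lead in the inhibitor libraries and EPSTI1 is lowest, and most genes lie further left in the right panel, whose tables were normalized separately.

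Among the most abundant was IFITM3, a membrane protein that keeps viruses from fusing in endosomes, at 796 and 675 FPKM in EPZ, against 721 and 664 FPKM in DMSO. LGALS3BP, a secreted glycoprotein that binds galectins, had 400.3 and 342 FPKM in EPZ, against 402 and 351 FPKM in DMSO. ADAR, which converts adenosine to inosine in double-stranded RNA, had 129.6 and 130.3 FPKM in EPZ, against 131 and 123 FPKM in DMSO. LY6E, a protein anchored to the outer face of the cell membrane, had 186 and 159.7 FPKM in EPZ, against 245 and 183 FPKM in DMSO. For each of these 4 genes the EPZ and DMSO libraries overlapped. In the knockdown lines LGALS3BP was at 460 and 467 FPKM in K56A, 395 and 394 FPKM in WT, and 422 and 455 FPKM in EV, the highest of the members there. IFITM3 was at 321 and 329 FPKM in K56A, 292 and 289 FPKM in WT, and 319.9 and 347 FPKM in EV. WT libraries were the lowest of the lines for both genes. ADAR was at 65.1 and 65.1 FPKM in K56A, 65.6 and 63.9 FPKM in WT, and 64.9 and 61.8 FPKM in EV, close together in all 6 libraries.

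Some neighbouring family members differed widely in level although they lie side by side in the genome, and others did not (GRCh38, coordinates as in the tables). SAMD9 (chromosome 7, 93099513 to 93118023), a restriction factor of poxviruses, was between 5.23 and 30.2 FPKM in the 10 libraries. SAMD9L, which starts at 93130056 on the same chromosome, did not exceed 0.209 FPKM. IFI44 (chromosome 1, 78649796 to 78664078) was measured at 10.1 and 12.6 FPKM in EPZ, against 2.89 and 6.76 FPKM in DMSO. Its neighbour IFI44L had 0.818 and 0.912 FPKM in EPZ, against 0.307 and 0.405 FPKM in DMSO, below the limit for testing but likewise with no overlap. Of the oligoadenylate synthetases on chromosome 12, whose products activate RNase L, OAS3 had 48.8 and 48.7 FPKM in EPZ, against 52.1 and 49.7 FPKM in DMSO. OAS2 next to it stayed at or below 0.317 FPKM in every library. In the IFIT cluster on chromosome 10, IFIT1, which binds viral RNA lacking cap methylation, had 28.0 and 34.1 FPKM in EPZ, against 20.3 and 25.6 FPKM in DMSO. IFIT3 in the same cluster had 4.06 and 4.02 FPKM in EPZ, against 2.59 and 3.60 FPKM in DMSO. IFIT5, nearer to IFIT1, had a more similar level, at 18.9 and 21.7 FPKM in EPZ, against 17.8 and 20.9 FPKM in DMSO. The neighbours HERC5 and HERC6 on chromosome 4 were also close, at 11.3 and 13.5 FPKM and at 9.47 and 11.2 FPKM in EPZ.

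The first comparison asked which of these genes differ after 72 h of DOT1L inhibition. Of the 37 genes tested, 30 had a higher mean in EPZ than in DMSO, the median log2 fold change was 0.20, and the range was -0.46 to 1.25. Over all 13130 genes tested the median was 0.00 and 50.5% lay above 0. No interferon-stimulated gene passed the adjusted p of 0.05 in limma (0 of 37), where 0.00762% of all genes passed. An unadjusted p under 0.05 was found for 9 of the 37 (24.3%), all of them higher in EPZ, against 5.83% of all genes. Both EPZ libraries were above both DMSO libraries for 17 of 37 genes (45.9%), against 18.6% of all genes, and below both for 2 (5.41%), UBE2L6 and OAS3, against 18.8%. Since none passed, these are shares and not calls. Every fold change given here is a difference of log2(FPKM + 0.5).

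The 4 smallest unadjusted p-values belonged to BST2, IFI44, IFITM1 and IFI6, and the limma adjusted p was 0.756 for each. BST2, or tetherin, which holds budding virus particles on the cell surface (chromosome 19, 17402939 to 17405630), was measured at 18.8 and 16.5 FPKM in EPZ, against 10.9 and 11.9 FPKM in DMSO, a log2 fold change of 0.61 ± 0.14 (SE). IFI44, whose values stand above, had 1.25 ± 0.32. IFITM1, which blocks virus entry at the plasma membrane (chromosome 11, 310944 to 315272), had 16.9 and 18.1 FPKM in EPZ, against 12.9 and 13.3 FPKM in DMSO, a difference of 0.40 ± 0.13. In IFI6, which encodes a membrane protein of the endoplasmic reticulum and mitochondria (chromosome 1, 27666064 to 27672212), the levels were 317 and 314 FPKM in EPZ, against 241 and 275 FPKM in DMSO, with 0.29 ± 0.10. The groups did not overlap in any of the 4, but the gap between the DMSO replicates of IFI44 was larger than that between the EPZ replicates. Of the main IFITM1 transcript, 42.3% of 50-base windows also occur in other genes, mostly IFITM2, so its level is uncertain. IFITM2, with 15.7% of windows shared, had 130.8 and 114 FPKM in EPZ, against 123 and 110.4 FPKM in DMSO, and overlapped. The main IFITM3 transcript shares 20.3% of its windows, mostly with IFITM2, so the IFITM3 levels carry the same limit.

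**Figure D2:**
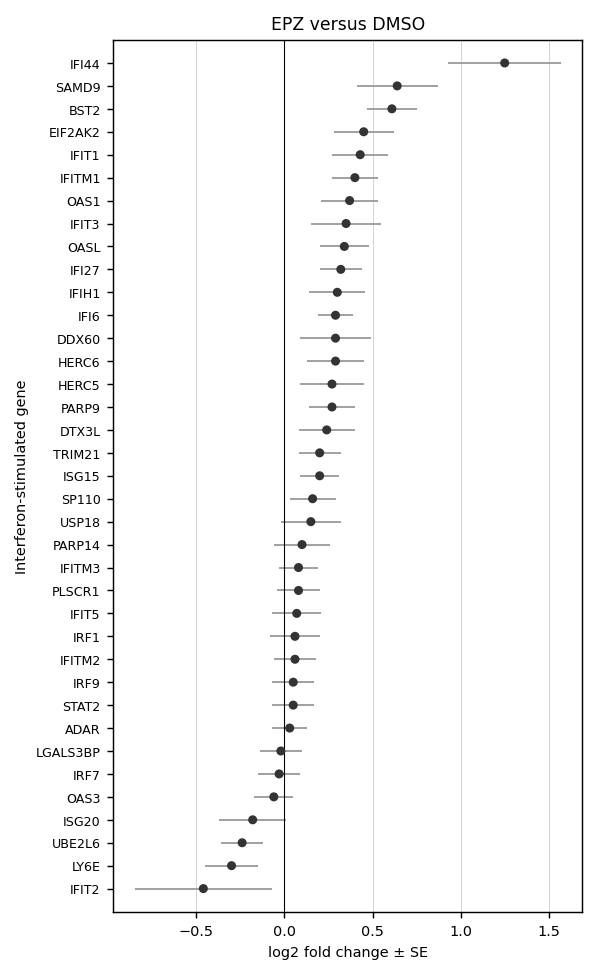
Log2 fold change of EPZ over DMSO with its standard error for the 37 interferon-stimulated genes tested (limma, n = 2 libraries per group), ordered by size. IFI44 is farthest to the right at 1.25 and IFIT2 farthest to the left at -0.46, 30 genes lie above 0, and no gene passed the adjusted p of 0.05.

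By role, the transcription factors of the pathway stood near 0. STAT2 had 37.1 and 33.1 FPKM in EPZ, against 34.8 and 33.1 FPKM in DMSO. The DNA-binding partner IRF9 had 37.9 and 40.8 FPKM in EPZ, against 38.3 and 37.5 FPKM in DMSO. IRF1, an activator induced mainly by interferon gamma, had 9.16 and 9.26 FPKM in EPZ, against 8.39 and 9.28 FPKM in DMSO. IRF7, which drives interferon alpha genes, had 57.2 and 50.6 FPKM in EPZ, against 57.1 and 52.6 FPKM in DMSO. The groups overlapped for each of these 4 factors, and log2 fold changes were between -0.03 and 0.06. With trends in GC content and length removed they were between 0.07 and 0.17, IRF7 moving to 0.17 from below 0, and none passed. Of the 5 factors SP110 alone did not overlap, at 24.5 and 29.1 FPKM in EPZ, against 24.1 and 23.5 FPKM in DMSO.

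All 4 genes of double-stranded RNA sensing and editing had a positive fold change, with none past the threshold. ADAR, at a log2 fold change of 0.03, and DDX60 overlapped between the groups, and ADAR was at -0.01 without DMSO replicate 2. EIF2AK2, the kinase PKR that halts translation on double-stranded RNA, had 53.5 and 58.9 FPKM in EPZ, against 34.4 and 48.8 FPKM in DMSO. IFIH1, the sensor MDA5, had 21.7 and 21.8 FPKM in EPZ, against 15.2 and 20.3 FPKM in DMSO. In both genes the lowest library was DMSO replicate 1, and DMSO replicate 2 lay closer to the EPZ mean than to its own replicate. Of the 6 genes grouped under ISG15 and ubiquitin-like conjugation, 5 had a positive fold change. They were ISG15, USP18, HERC5, HERC6 and TRIM21. USP18 and HERC5 overlapped between the groups, and USP18 was at -0.07 without DMSO replicate 1. ISG15 itself (chromosome 1, 1001145 to 1014540) had 581 and 489 FPKM in EPZ, against 479 and 451 FPKM in DMSO. UBE2L6, the enzyme that carries ISG15 to its targets, ran the other way, at 27.2 and 27.9 FPKM in EPZ, against 32.1 and 32.9 FPKM in DMSO. SAMD9 had 25.1 and 30.2 FPKM in EPZ, against 13.5 and 22.6 FPKM in DMSO, and IFI27, a small mitochondrial and nuclear membrane protein, had 77.5 and 72.9 FPKM in EPZ, against 57.1 and 63.6 FPKM in DMSO.

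The DMSO replicates differed from each other in a way that followed base composition. DMSO replicate 2 was higher than replicate 1 for 23 of the 37 genes (62.2%), with a median log2 difference of 0.14, against 50.1% and 0.00 over all genes. The median difference of mean EPZ over DMSO replicate 1 alone was 0.27, and over DMSO replicate 2 alone 0.14. Across the 34 of these genes with a GC value, the GC content of the main transcript had r = -0.78 with the difference between the DMSO replicates and r = -0.59 with EPZ minus DMSO, and across all 12724 genes with a value -0.44 and -0.42. These are correlations across genes of the same libraries, which share DMSO replicate 1, and are given as descriptions. With trends in GC content and length removed from each library, a step chosen after seeing the data, 32 of the 37 genes lay above 0, the median was 0.17 and 0 passed. BST2 then had 0.70 ± 0.12, ISG15 0.36 ± 0.07, IFI44 1.10 ± 0.26 and SAMD9 0.46 ± 0.14, with limma adjusted p-values from 0.472 to 0.558. Without DMSO replicate 2, 8 of the 37 genes passed, IFI44, SAMD9, EIF2AK2, BST2, IFIT1, IFIH1 and IFI6 higher in EPZ and LY6E lower, while 12.1% of all genes passed in that fit, 7.06% upward and 5.06% downward. Without DMSO replicate 1, EPZ replicate 1 or EPZ replicate 2, IFI44 was the 1 gene that passed, and its log2 fold change was 0.70, 1.41 and 1.10 in these 3 fits, in which 0.579%, 0.274% and 0.251% of all genes passed. Such fits leave a group with 1 library, whose spread is assumed to be that of the other group.

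**Figure D3:**
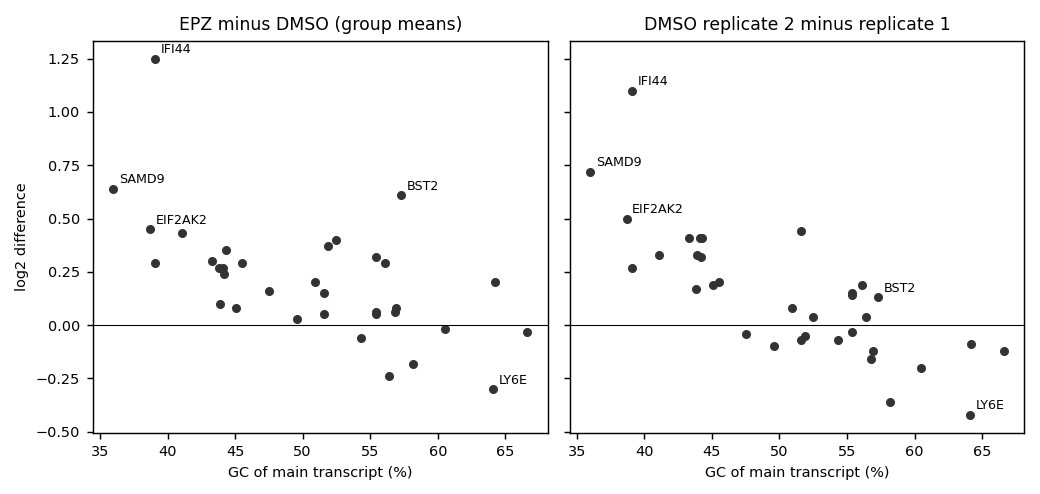
GC content of the main transcript (percent) against the log2 difference of EPZ minus DMSO (left) and of DMSO replicate 2 minus DMSO replicate 1 (right) for the 34 interferon-stimulated genes with a GC value, 1 dot per gene; both panels use DMSO replicate 1. IFI44, SAMD9 and EIF2AK2, low in GC, are high in both panels and LY6E is low in both, while BST2 is at 0.61 on the left and 0.13 on the right.

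The second comparison asked how cells with K56A CDK9 differ from EV cells. IFI27, ISG15 and IFI6 rose in K56A cells, 3 of 28 genes tested, and none fell. Of all 11566 genes, 0.787% passed, 0.19% upward and 0.597% downward. IFI27 (ENSG00000165949, chromosome 14, 94104836 to 94116698) had 32.6 and 36.5 FPKM in K56A, against 20.6 and 16.8 FPKM in EV. ISG15 (ENSG00000187608), the ubiquitin-like modifier itself, had 116 and 104 FPKM in K56A, against 82.4 and 87.8 FPKM in EV. IFI6 (ENSG00000126709) had 175 and 161 FPKM in K56A, against 125 and 135 FPKM in EV. Both K56A libraries were above both EV libraries in all 3 genes. The log2 fold change was 0.87 ± 0.11 for IFI27, a 1.83-fold difference (SE, limma adjusted p = 0.018), 0.37 ± 0.06 for ISG15, 1.29-fold (adjusted p = 0.0363), and 0.37 ± 0.06 for IFI6, also 1.29-fold (adjusted p = 0.0388). The next smallest p belonged to IRF9, at 24.2 and 26.2 FPKM in K56A, against 19.7 and 21.2 FPKM in EV, with 0.30 ± 0.07 and an adjusted p of 0.0996. With coding transcripts alone the log2 fold change of IRF9 was 0.09 (adjusted p = 0.894). Its main coding transcript, IRF9-202, had 6.65 and 5.95 FPKM in K56A, against 4.49 and 7.63 FPKM in EV, and overlapped. The retained-intron transcript IRF9-208 had 4.63 and 6.06 FPKM in K56A and 6.48 and 6.03 FPKM in WT, against 3.17 and 2.32 FPKM in EV. The sequence of the main IRF9 transcript lies wholly within a readthrough gene, AL136295.5, so its level is uncertain.

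These calls did not hold under every alternative. Over the 16 alternatives, IFI27 passed in 11, with adjusted p from 0.0151 to 0.265, and the others passed in 5 each, ISG15 from 0.0223 to 0.265 and IFI6 from 0.0258 to 0.271. IFI27 did not pass without EV replicate 2, K56A replicate 1 or K56A replicate 2, and ISG15 and IFI6 did not pass without any 1 of the 6 libraries, those of WT included. The sign held throughout.

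**Figure D4:**
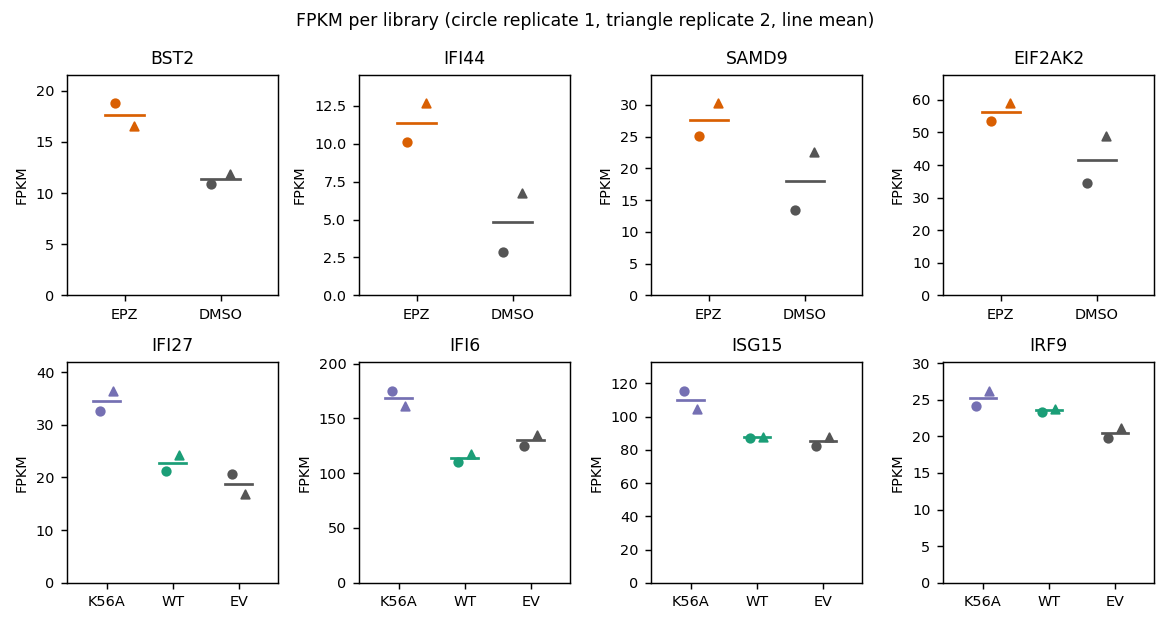
FPKM in each library for 4 genes of the inhibitor experiment (top, EPZ left of DMSO) and 4 of the knockdown experiment (bottom, K56A, WT and EV), circle for replicate 1, triangle for replicate 2 and line for the mean of n = 2; each axis starts at 0. The K56A libraries of IFI27, IFI6 and ISG15 lie above all WT and EV libraries, IFI6 is lowest in WT, and the DMSO replicates of IFI44, SAMD9 and EIF2AK2 lie far apart.

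Most other members also had a higher mean in K56A, with differences that did not pass. In all, 20 of the 28 genes had a higher mean in K56A than in EV, where 57.7% of all genes did, and the median log2 fold change was 0.13, against 0.03 over all genes. Both K56A libraries exceeded both EV libraries for 19 of 28 genes (67.9%), against 27.6% of all genes, and lay below them for 3 (10.7%), LY6E, TRIM21 and IFITM1, against 17.9%. An unadjusted p under 0.05 was found for 8 (28.6%), against 15.1% of all genes, with 7 higher and LY6E lower. By role, all 3 transcription factors tested, IRF1, IRF7 and IRF9, were higher without overlap, IRF9 not in its main coding transcript, and so were all 3 of PARP9, DTX3L and PARP14, which attach ADP-ribose or ubiquitin to proteins in interferon and DNA damage responses. IRF1 had 7.64 and 7.40 FPKM in K56A and 6.41 and 6.92 FPKM in WT, against 7.398 and 6.15 FPKM in EV. IRF7 had 15.4 and 13.2 FPKM in K56A and 11.97 and 12.9 FPKM in WT, against 12.6 and 13.1 FPKM in EV. In both factors the higher EV library lay just under the lower K56A library. Of the 6 genes grouped under ISG15 and ubiquitin-like conjugation, 5 had a positive fold change and TRIM21 had -0.16. With median-ratio scaling 4 were positive, as UBE2L6 moved to -0.02. USP18, the protease that takes ISG15 off again, had 4.13 and 4.39 FPKM in K56A, against 3.01 and 3.09 FPKM in EV, a log2 fold change of 0.42 ± 0.11 that did not pass (adjusted p = 0.157). USP18 shares 23.4% of its 50-base windows with other genes, mainly USP41. Among the 7 genes grouped as virus restriction factors at the cell membrane, 2 had a positive fold change, PLSCR1 and the secreted LGALS3BP. The others were IFITM1, IFITM2, IFITM3, BST2 and LY6E.

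The third comparison set K56A against WT cells, which both carry returned CDK9. IFI6 rose in K56A cells, 1 of 28 genes tested, and none fell. Of all genes, 0.0605% passed, 0.0173% upward and 0.0432% downward. Its level of 175 and 161 FPKM in K56A compared with 110 and 117 FPKM in WT, a log2 fold change of 0.56 ± 0.06 (1.48-fold, limma adjusted p = 0.0329), with no overlap. This call was lost without any 1 of the K56A or WT libraries, and held in 7 of 15 alternatives (adjusted p from 0.018 to 0.432). LGALS3BP, ISG15 and IFI27 followed with an adjusted p of 0.114 each. ISG15 had 116 and 104 FPKM in K56A, against 87.1 and 87.7 FPKM in WT, with 0.33 ± 0.06. IFI27 had 32.6 and 36.5 FPKM in K56A, against 21.2 and 24.3 FPKM in WT, with 0.59 ± 0.11. LGALS3BP, with the levels given above, had 0.23 ± 0.04. The groups did not overlap in any of these 3 genes. Across the 11228 genes with a GC value, GC content had r = 0.38 with K56A minus WT, 0.16 with K56A minus EV and -0.17 with WT minus EV, a description across genes of the same libraries. With trends in GC content and length removed, K56A over WT was 0.20 for ISG15 (limma adjusted p = 0.294) and 0.13 for LGALS3BP (adjusted p = 0.407), and LY6E was at -0.06 in place of 0.06. In all, 21 of 28 genes had a higher mean in K56A than in WT, against 54.5% of all genes, and the median was 0.09, against 0.01. Both K56A libraries exceeded both WT libraries for 14 genes (50%), against 26% of all genes, and lay below them for 3 (10.7%), against 19.5%.

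The fourth comparison, WT against EV, gave differences on both sides of 0. None of the 28 genes passed, where 0.536% of all genes did (0.0778% upward and 0.458% downward), 13 had a higher mean in WT, where 52.6% of all genes did, and the median was -0.01, against 0.01 over all genes. An unadjusted p under 0.05 was found for 6 (21.4%), 2 higher and 4 lower, against 13.5% of all genes. Groups that did not overlap were 6 higher (21.4%), against 22.6% of all genes, and 6 lower (21.4%), against 20.9%. The smallest p-values were those of LY6E, IFITM3, LGALS3BP and IFI6, all lower in WT. LY6E, which restricts coronaviruses and aids some other viruses, had 122 and 117 FPKM in K56A and 109 and 119 FPKM in WT, against 137 and 133 FPKM in EV, with -0.24 ± 0.05 (limma adjusted p = 0.0908). IFITM3, with the levels given above, had -0.20 ± 0.04 (adjusted p = 0.0972), and LGALS3BP -0.15 ± 0.04 (adjusted p = 0.146). IFI6 had 110 and 117 FPKM in WT, against 125 and 135 FPKM in EV, with -0.19 ± 0.06 (adjusted p = 0.212). All 7 genes grouped as virus restriction factors at the cell membrane had a negative fold change, with a median of -0.10. PLSCR1 lay at -0.00 and was at 0.07 without WT replicate 1. The groups did not overlap for 3 of the 7, LY6E, IFITM3 and LGALS3BP, of which LGALS3BP is secreted. Without EV replicate 2 the log2 fold changes of BST2, IFITM1 and IFITM2 were 0.01, 0.00 and 0.05. LY6E, IFITM3 and LGALS3BP kept their sign under every alternative. IFITM1 and IFITM2, close relatives of IFITM3, overlapped between WT and EV. IFITM1 had 11.4 and 11.4 FPKM in K56A and 11.4 and 12.1 FPKM in WT, against 11.7 and 13.6 FPKM in EV, and IFITM2 had 42.8 and 48.3 FPKM in K56A and 48.4 and 44.7 FPKM in WT, against 44.9 and 50.5 FPKM in EV. The 3 knockdown comparisons share their libraries, so the same K56A, WT or EV values enter 2 of them each.

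**Figure D5:**
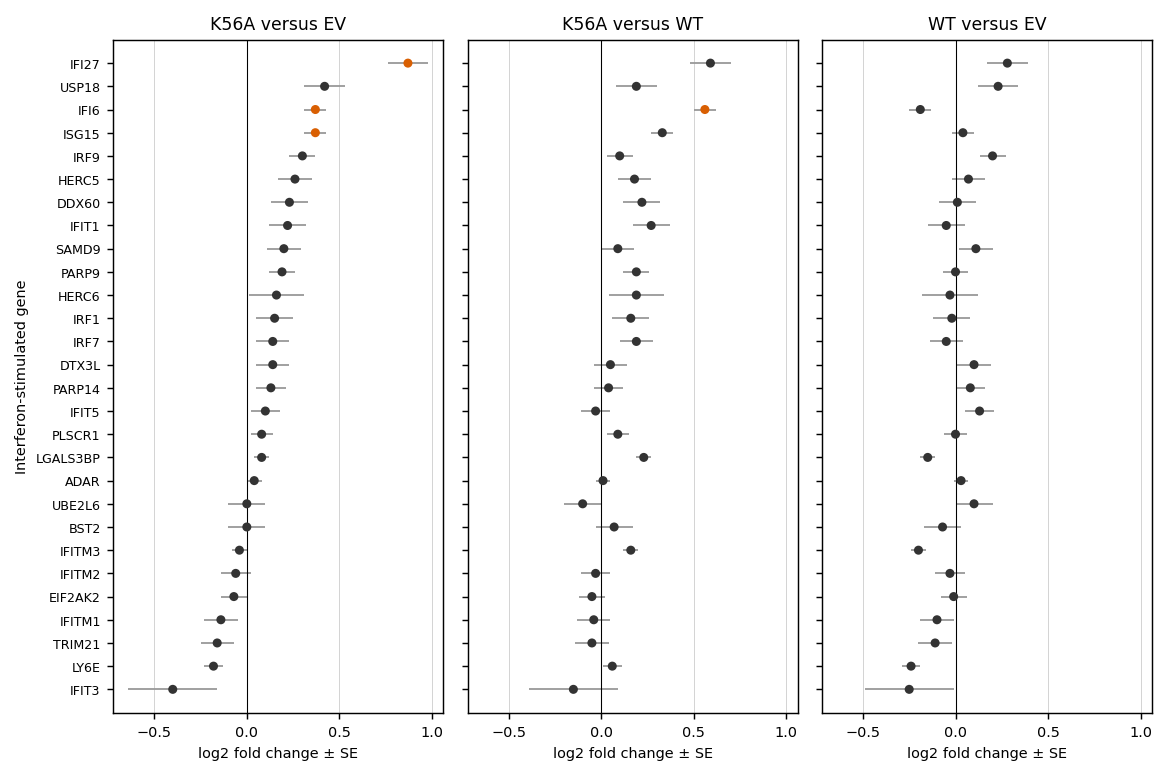
Log2 fold change with its standard error of the 28 interferon-stimulated genes tested in the knockdown experiment (limma, n = 2 libraries per group), for K56A over EV, K56A over WT and WT over EV, with genes ordered by K56A over EV; orange marks an adjusted p under 0.05. IFI27, IFI6 and ISG15 are orange in the left panel, IFI6 in the middle panel and none in the right panel, where IFI6, LGALS3BP, IFITM3 and LY6E lie left of 0.

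A further 10 of the 38 genes were left out of the knockdown fit. EPSTI1, a gene first described in breast carcinoma next to stroma, stayed below 1 FPKM in all but 2 of the 10 libraries, and the other 9 had more than 5% of their FPKM in transcripts listed in only 1 of the 2 knockdown tables. With all listed transcripts summed, none of the 10 passed in any of the 3 knockdown comparisons (limma, 13977 genes tested). The nearest was OAS3, at 33.6 and 33.6 FPKM in K56A and 28.1 and 28.6 FPKM in WT, against 29.1 and 28.3 FPKM in EV. Its log2 fold change was 0.22 ± 0.05 for K56A over EV (adjusted p = 0.120) and 0.24 ± 0.05 for K56A over WT (adjusted p = 0.122). In these sums a transcript that the table of a line does not list counts as 0. On the transcripts listed in both tables, OAS3 had 32.2 and 28.4 FPKM in K56A and 28.0 and 28.0 FPKM in WT, against 26.3 and 27.5 FPKM in EV, and the log2 differences were 0.17 for K56A over EV and 0.11 for K56A over WT. IFIT2, which binds AU-rich RNA, had 5.57 and 6.63 FPKM in K56A and 3.02 and 4.57 FPKM in WT, against 3.99 and 3.69 FPKM in EV, with 0.60 ± 0.17 for K56A over EV, which did not pass. The K56A libraries were above all WT and EV libraries in both genes. STAT2 had 35.1 and 33.6 FPKM in K56A and 35.1 and 34.1 FPKM in WT, against 31.1 and 35.0 FPKM in EV, and IFI44 had 4.71 and 4.90 FPKM in K56A and 4.33 and 4.55 FPKM in WT, against 4.31 and 3.97 FPKM in EV. On the transcripts listed in both tables IFI44 was lower in K56A than in WT, at 3.63 and 4.20 FPKM in K56A, against 4.33 and 4.55 FPKM in WT.

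Members with and without ISRE letters were set side by side, as a description of the windows searched. In EPZ over DMSO, the median log2 fold change was 0.28 for the 20 tested genes with a match and 0.16 for the 11 without. In K56A over EV it was 0.16 for 16 genes with a match and 0.09 for 8 without, in K56A over WT 0.17 and 0.03, and in WT over EV -0.00 and 0.01. The ranges overlapped in each comparison. Tested genes without a promoter entry were 6 in the inhibitor fit and 4 in the knockdown fit. Their medians were 0.02, 0.04, 0.13 and -0.04 in the same order of comparisons. USP18, at 0.42 in K56A over EV, was among them. The 3 genes that passed for K56A over EV all had 2 or more matches, as shown above, and so did IFIT3, which had the lowest fold change there, at -0.40.

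Upstream of these genes, no ligand, receptor, kinase, sensor or negative regulator passed in any of the 4 comparisons. Of 21 interferon genes, 2 reached 1 FPKM in some library. IFNE, an interferon of epithelia, had 2.07 and 2.27 FPKM in EPZ, against 0.747 and 1.75 FPKM in DMSO, and 3.62 and 2.99 FPKM in K56A and 3.77 and 3.98 FPKM in WT, against 3.05 and 2.87 FPKM in EV. IFNL1, a type III interferon, had 1.49 and 0.783 FPKM in K56A and 0.598 and 0.664 FPKM in WT, against 0.653 and 1.04 FPKM in EV. The K56A and EV libraries overlapped for both genes. In all, 3 of the 21 interferon genes were listed, IFNL2 among them at 0.416 FPKM or less in the knockdown libraries.

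Of the receptor chains, IFNAR1 had 12.3 and 15.5 FPKM in EPZ, against 8.22 and 13.9 FPKM in DMSO, and IFNAR2 had 11.9 and 10.9 FPKM in EPZ, against 11.2 and 10.9 FPKM in DMSO. The K56A libraries had the lowest IFNAR2, at 9.07 and 9.12 FPKM, against 11.01 and 11.6 FPKM in WT and 10.5 and 10.9 FPKM in EV, with a log2 fold change over EV of -0.23 ± 0.07 that did not pass (limma adjusted p = 0.210). JAK1 had 18.3 and 21.1 FPKM in EPZ, against 14.8 and 18.7 FPKM in DMSO, and 18.7 and 18.7 FPKM in K56A and 19.8 and 18.8 FPKM in WT, against 15.7 and 17.3 FPKM in EV. TYK2 had 62.5 and 51.0 FPKM in EPZ, against 59.3 and 52.1 FPKM in DMSO, and its K56A, WT and EV libraries lay between 80.7 and 96.7 FPKM. None of 9 negative regulators passed, and the smallest p among them was that of PTPN2 in EPZ against DMSO and of IRF2 in K56A against EV.

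Among the nucleic acid sensors, the smallest p in EPZ against DMSO was that of DDX58, the sensor RIG-I, at 17.6 and 20.5 FPKM in EPZ, against 8.65 and 15.2 FPKM in DMSO (0.70 ± 0.24, limma adjusted p = 0.756). As in EIF2AK2 and IFI44, DMSO replicate 1 was the lowest library. Next was TREX1, a nuclease that degrades DNA in the cytosol, at 6.77 and 4.30 FPKM in EPZ, against 8.47 and 7.50 FPKM in DMSO (-0.52 ± 0.21, limma adjusted p = 0.756). Of the 15 sensors and adaptors tested, 6 had a positive fold change in EPZ over DMSO, with a median of -0.08. Among other genes that interferons induce, a list that also holds DDX58, 27 of 33 tested had a positive fold change in EPZ over DMSO, with a median of 0.10 and 0 past the threshold. In K56A over EV it was 21 of 30, with a median of 0.04, and 0 passed. In K56A over WT it was 19 of 30, with a median of 0.02, and in WT over EV 15 of 30, with a median of 0.00. Of all genes, 50.5%, 57.7%, 54.5% and 52.6% lay above 0 in these comparisons, in the same order. The medians over all genes were 0.00, 0.03, 0.01 and 0.01. PARP12, a mono-ADP-ribosyltransferase, had the smallest p in K56A against EV, with 0.29 ± 0.08 (adjusted p = 0.157).

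At the level of transcripts, ADAR is transcribed from an interferon-inducible promoter, which gives the long protein, and from constitutive ones, which give the short protein. The 3 coding transcripts of the long form, of 1157 to 1226 residues in GENCODE 29, summed to 31.4 and 25.7 FPKM in EPZ, against 41.4 and 24.7 FPKM in DMSO. The 6 of the short form, of 931 residues, summed to 72.0 and 75.9 FPKM in EPZ, against 48.7 and 74.2 FPKM in DMSO. For both forms DMSO replicate 1 stood apart from the other libraries and the groups overlapped. In the knockdown lines the long form was at 7.72 and 6.42 FPKM in K56A and 5.99 and 6.45 FPKM in WT, against 5.88 and 7.55 FPKM in EV, and the short form at 26.9 and 29.5 FPKM in K56A and 30.1 and 29.5 FPKM in WT, against 28.5 and 27.3 FPKM in EV. The short form was higher in both WT libraries than in both EV libraries, and the other pairs of lines overlapped in both forms. ADAR-202 of the long form and ADAR-219 of the short form were not listed for the knockdown lines, so these sums lack them. Single transcripts could differ widely between replicates, as ADAR-220 of the short form had 0 and 20.4 FPKM in DMSO.

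The rise of IFI27 in K56A was spread over its 3 main coding transcripts. IFI27-215 had 11.6 and 12.3 FPKM in K56A, against 6.52 and 3.62 FPKM in EV, IFI27-211 had 7.49 and 9.35 FPKM in K56A, against 5.81 and 4.27 FPKM in EV, and IFI27-212 had 8.08 and 10.1 FPKM in K56A, against 4.84 and 4.99 FPKM in EV. ISG15 came almost wholly from a single transcript, ISG15-203, and IFI6 mostly from IFI6-202. In the authors' deposited table for K56A against EV, 17 of 235 listed member transcripts had an adjusted p under 0.05, 10 higher and 7 lower, where 3.8% of all transcripts did (1.89% higher and 1.91% lower). They included IFI6-202 with a log2 fold change of 0.34 (adjusted p = 0.00595), ISG15-203 with 0.33 (adjusted p = 0.0108) and IFI27-215 with 1.21 (adjusted p = 0.0491), by the values of the authors' deposited table. The main transcript of LY6E, LY6E-201, was among the lower with -0.26 (adjusted p = 0.0402, authors' deposited table). Others of the 17, a transcript each of STAT2, EIF2AK2, OAS3, IFIH1, IRF7, IRF1 and OAS1, were listed at 0 in both libraries of a group. For WT against EV, the authors' deposited table had 10 of 234 member transcripts, 4 higher and 6 lower, where 3.33% of all transcripts passed (1.56% higher and 1.77% lower), and IFITM3-201 was among the lower with -0.22 (adjusted p = 0.0208). Among these 10, the transcripts of EIF2AK2, SP110, PARP9 and LY6E and a transcript of STAT2 were listed at 0 in both libraries of a group. For EPZ against DMSO, the authors' deposited table had 5 of 234, 3 higher and 2 lower, where 1.19% of all transcripts passed (0.639% higher and 0.556% lower). These 5 were single transcripts of LY6E, OAS3, PARP9 and IRF7 that were listed at 0 in both libraries of a group, and none was the main transcript of its gene.

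The knockdown libraries held less of most of these genes than the inhibitor libraries did, although the tables were normalized separately and the experiments were not tested against each other. Across the 28 members in both fits, the median log2 ratio of EV over DMSO was -1.09, against -0.14 over 10641 genes, 25 of the 28 were below that gene median and 17 were below -1. ISG15 was lowest, at -2.45, with 82.4 and 87.8 FPKM in EV, against 479 and 451 FPKM in DMSO, followed by IRF7 at -2.09 and IFIT1 at -2.07. LGALS3BP at 0.22 and DDX60, a helicase that assists RIG-I, at 0.35 were the 2 above 0. EV and DMSO cells differ in the hairpin and in CDK9 and DOT1L levels, and the labels do not say whether they were run together. Their libraries also differ in the mitochondrial share given above. Retained-intron transcripts held 9.75% and 9.66% of FPKM in EV, against 6.28% and 6.13% in DMSO. These differences cannot be told apart.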

How the data were processed

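RNA of HCT116 cells was extracted with TRIzol and 150 ng went into each TruSeq mRNA library, per the labels' protocols. The authors deposited FPKM per transcript in 3 tables of 4 libraries each (EPZ with DMSO, WT with EV, K56A with EV), and a transcript is listed where 2 or more libraries of its table exceed 0. The submitters' processing notes name Trim Galore 0.6.6, STAR 2.7.1a, then RSEM 1.3.3, also DESeq2 1.32.0, and the build GRCh38, without saying which did what. Neither annotation release nor strand setting is given in the sources used here, and without strand an overlapping gene on the other strand can share reads. The authors' log2 fold changes and p-values per transcript came from edgeR (inhibitor) and DESeq2 (knockdown), per the file headers, and only describe the authors' calls. Another 4 columns of group summaries were not used. With no counts in the tables, depth is unknown and no counting error is given.

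FPKM were summed per gene. The EV libraries occur in both knockdown tables and differ between them by a constant factor (1.0007 and 1.0006), so K56A values were multiplied by the mean factor. The knockdown sums use the 69086 transcripts that both tables list, and genes with more than 5% of FPKM outside them were left out (2284 of 13850). The test was limma 3.58.1 in R 4.3.3, on log2(FPKM + 0.5) of genes at 1 FPKM or more in at least 2 libraries. The model held group means and an intensity trend, and the two-sided p-values were Benjamini-Hochberg adjusted over all genes, with a threshold of 0.05. EPZ against DMSO used 4 libraries (13130 genes), and the 3 knockdown comparisons came from 1 fit of 6 libraries (11566 genes). A fold change on this scale understates that of low genes. The fit was tested on simulated data with independent noise in each library and no trend in GC content. That test cannot speak for differences that follow base composition. Python 3.11.15 (pandas 2.3.3; numpy 2.4.6) made the tables and matplotlib 3.10.9 the plots. GC content, lengths and shared windows of 50 bases come from GENCODE 29, and 96.9% (inhibitor) and 97.1% (knockdown) of tested genes had a GC value.

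The members, the lists and the named genes were chosen with earlier results of these data known. Values per library are given for members that passed, for the 4 smallest p-values per comparison, for the 6 highest mean levels, for the IFITM genes and for pathway factors. Other members are given by role. The values of 1 pathway gene are not reported here. SAMD9, EIF2AK2, the neighbouring pairs and the members nearest the threshold outside the knockdown fit were picked after their values were seen. Alternatives tried were the pseudocount, no filter, another scaling, no intensity trend, a replicate block, coding transcripts, all listed transcripts, a pair's own table, each library left out and, chosen after seeing the data, GC and length trends removed.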

Additional observations from a re-analysis of the deposited data

How the results depend on the processing

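Among the 4 genes with the smallest p in each comparison, no fold change changed sign under any alternative run. Over all genes tested among the members, the sign changed under at least 1 alternative for 14 of 37 in EPZ over DMSO, 5 of 28 in K56A over EV, 10 of 28 in K56A over WT and 15 of 28 in WT over EV. Of these IRF9 in WT over EV alone had an unadjusted p under 0.05, at 0.20, and it was -0.08 with coding transcripts. IFIT2 in EPZ over DMSO was 0.19 without EPZ replicate 1, in place of -0.46. The number of these genes past the threshold for EPZ over DMSO, 0, was 1 to 8 with a library left out. For K56A over EV, 3, it was 1 with no filter, 0 without intensity trend, 0 with coding transcripts, 1 with the pair's own table and 0 to 1 with a library left out. For K56A over WT, 1, it was 0 with no filter, without intensity trend and with coding transcripts, and 0 to 2 with a library left out. WT over EV kept 0 throughout. The median log2 fold change was 0.14 to 0.27 for EPZ over DMSO, 0.10 to 0.15 for K56A over EV, 0.08 to 0.14 for K56A over WT and -0.03 to 0.03 for WT over EV.

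Counts over all genes moved too. For EPZ over DMSO, 1 gene passed, and 0 with GC and length trends removed, with no filter, without intensity trend or at a pseudocount of 0.1, 3 with coding transcripts and 33 to 1592 with a library left out. For WT over EV, 62 passed, and 99 with GC and length trends removed, 40 with no filter, 1 without intensity trend, 37 with coding transcripts, 10 in the pair's own table and 2 to 11 with a library left out. For K56A over EV, 91 passed, and 145 with GC and length trends removed, 55 with no filter, 4 without intensity trend, 41 with coding transcripts, 22 in the pair's own table and 6 to 37 with a library left out. For K56A over WT, 7 passed, and 30 with all listed transcripts, 1 with no filter, 0 without intensity trend, 1 with coding transcripts and 1 to 19 with a library left out. The 22 higher and 69 lower calls of K56A over EV became 15 and 94 with median-ratio scaling.

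Replicate numbers are shared by name only, and deviations of same-numbered libraries had r = 0.24 for EPZ and DMSO and between -0.03 and 0.03 for the knockdown pairs. With a replicate block, the members past were 0 for EPZ over DMSO, 1 for K56A over EV (IFI27, adjusted p = 0.0322), 0 for K56A over WT and 0 for WT over EV, and the genes past were 2, 53, 3 and 46. The tables hold no counts, so what depth limits could not be assessed.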
